A study of Mus musculus with 2 samples.

Results

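The genes described here are 34 members of the hypoxia-inducible factor (HIF) pathway, made up of the HIF subunits, the enzymes that sense oxygen and remove HIF, and targets that cells switch on in low oxygen, without the glycolytic enzymes. The list holds known genes of the pathway but was drawn up with earlier results of these data known, and by symbol all 34 were found among the 32285 genes of the files. The data are single-cell RNA counts of murine CD8+ T cells, the cytotoxic lymphocytes, with lymph node given as the tissue, in 1 library labelled HC and 1 labelled NC. The study compares CD8+ T cells with and without electrical stimulation delivered through the matrix. The labels do not spell out HC or NC or say which library was stimulated, and strain, age, strength of the stimulus and time were not stated there. With 1 library per group there was no replicate and no test between the groups. Every interval below is a 95% interval for counting error only.

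HIF is a pair of proteins, a regulated alpha subunit made from Hif1a or Epas1 and its constant partner from Arnt. In the presence of oxygen the EGLN hydroxylases mark the alpha subunit, the VHL ubiquitin ligase recognises the mark, and the subunit is destroyed, while the hydroxylase encoded by Hif1an blocks what remains from recruiting coactivators. When oxygen falls the subunit persists and binds short DNA motifs with the core ACGTG or GCGTG. In T cells receptor signals also raise HIF, and it is known for turning effector CD8+ T cells towards glycolysis. Much of this control acts on protein, which RNA counts do not show.

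Depth was counted in unique molecular identifiers (UMIs, each marking 1 captured RNA molecule), 116897716 over 15495 barcodes in HC and 117408492 over 14798 barcodes in NC. Barcodes were kept from 500 genes and 1000 UMIs upward if mitochondrially encoded genes gave no more than 10% of their UMIs, 13617 in HC with a median of 7425 UMIs and 13641 in NC with a median of 6898. A total of 64 barcodes occurred in both libraries, and doublets were not removed. The 8 markers of CD8+ T cells were detected in both libraries, Cd8a or Cd8b1 without Cd4 was found in 98.3% of HC cells and 98.4% of NC cells, and the 7 B cell markers summed to 20.2 CPM (UMIs per 1000000 UMIs) in HC and 37.5 CPM in NC. The 6 macrophage and monocyte markers summed to 2.18 CPM in HC, with Adgre1, Lyz2 and C1qa at 0 UMIs, and to 4.46 CPM in NC, with C1qa at 0. Summed markers were 5.70 CPM in HC and 4.29 CPM in NC for CD4+ and regulatory T cells, 1.82 CPM in HC and 3.39 CPM in NC for natural killer and innate lymphoid cells, and 45.6 CPM in HC and 48.7 CPM in NC for stroma and endothelium, of which Pecam1 made up 40.9 CPM in HC and 43.6 CPM in NC. Those of dendritic cells, of neutrophils and mast cells, and of erythroid cells and platelets stayed under 1 CPM in both libraries.

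Proximal promoters, all of which hold ACGTG, are shown for 6 members chosen by level and by ratio of HC over NC, not by motif. They are the 6 members with the highest ratio of HC over NC, at 20 CPM or more in either library, that the RefSeq promoter table (build GRCm38.p6) held. Each window runs from 250 bases before the annotated start to 50 bases after it, read 5′ to 3′ on the gene's strand, with each ACGTG or GCGTG and its reverse complement in capitals.
Ankrd37: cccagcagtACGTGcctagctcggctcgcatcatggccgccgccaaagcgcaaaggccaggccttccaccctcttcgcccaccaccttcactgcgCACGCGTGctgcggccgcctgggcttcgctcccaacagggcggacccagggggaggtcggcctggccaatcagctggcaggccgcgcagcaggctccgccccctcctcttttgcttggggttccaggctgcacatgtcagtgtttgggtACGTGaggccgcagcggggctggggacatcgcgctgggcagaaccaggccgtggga
Egln3: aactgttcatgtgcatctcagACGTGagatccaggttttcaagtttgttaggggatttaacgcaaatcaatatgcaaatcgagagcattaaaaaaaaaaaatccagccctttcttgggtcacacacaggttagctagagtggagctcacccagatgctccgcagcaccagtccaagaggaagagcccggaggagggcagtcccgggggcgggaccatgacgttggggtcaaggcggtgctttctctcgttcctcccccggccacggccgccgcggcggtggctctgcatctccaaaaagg
P4ha1: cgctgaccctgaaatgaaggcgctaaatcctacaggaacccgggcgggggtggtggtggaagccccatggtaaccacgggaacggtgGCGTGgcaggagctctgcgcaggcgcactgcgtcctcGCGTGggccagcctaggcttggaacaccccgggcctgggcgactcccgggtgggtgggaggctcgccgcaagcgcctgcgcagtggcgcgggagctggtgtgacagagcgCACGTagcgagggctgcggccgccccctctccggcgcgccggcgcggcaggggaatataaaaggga
Ero1l: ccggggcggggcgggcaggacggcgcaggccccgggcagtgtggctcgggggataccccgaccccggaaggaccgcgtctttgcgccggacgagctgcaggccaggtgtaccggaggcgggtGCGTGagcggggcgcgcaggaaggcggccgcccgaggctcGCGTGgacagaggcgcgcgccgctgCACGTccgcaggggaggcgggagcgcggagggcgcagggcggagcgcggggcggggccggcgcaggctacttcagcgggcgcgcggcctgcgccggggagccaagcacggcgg
Galk1: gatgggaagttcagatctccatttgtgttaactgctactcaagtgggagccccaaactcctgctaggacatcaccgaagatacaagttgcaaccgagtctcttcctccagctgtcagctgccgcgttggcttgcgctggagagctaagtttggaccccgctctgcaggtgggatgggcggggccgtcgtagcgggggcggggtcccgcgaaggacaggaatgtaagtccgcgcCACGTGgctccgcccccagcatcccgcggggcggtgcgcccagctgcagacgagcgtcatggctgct
Fam162a: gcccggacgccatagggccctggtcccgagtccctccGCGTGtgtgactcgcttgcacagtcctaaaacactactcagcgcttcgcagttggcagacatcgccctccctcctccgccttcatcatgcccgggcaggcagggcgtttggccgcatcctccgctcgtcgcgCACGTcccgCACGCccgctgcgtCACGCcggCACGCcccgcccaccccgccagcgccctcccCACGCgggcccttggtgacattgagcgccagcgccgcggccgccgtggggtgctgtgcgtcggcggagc
The Ankrd37 window lies at chr8:45999801-46000100 on the minus strand, that of Egln3 at chr12:54203825-54204124 (minus), that of P4ha1 at chr10:59323046-59323345 (plus), that of Ero1l (Ero1a in the table) at chr14:45318523-45318822 (minus), that of Galk1 at chr11:116012670-116012969 (minus) and that of Fam162a at chr16:36071512-36071811 (minus). In Galk1 the palindrome CACGTG was counted as ACGTG on both strands. Windows were at hand for 29 members, the others being Epas1, Plod2, Kdm4b, Ndrg1 and Zfp395.

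The letters ACGTG on either strand stood in 10 of 11 windows (90.9%) of the members that reached 5 CPM and were at least 1.5-fold higher in HC. Of the members under 5 CPM that were as much higher in HC, they stood in 2 of 4 windows, which belong to P4ha2, Stc2 and Vegfa. They stood in 8 of 20 windows (40%) of the counted members under 1.5-fold, in 26.8% of 8843 windows of all genes counted in the comparison, and in 19.6% of all 32851 windows of the table. GCGTG stood in 9 of the 11 windows, 12 of the 20 and 53.4% of the windows of all genes counted. Median GC content was 69% in the 11 windows, 61.5% in the 20 and 61.3% over all genes counted, and the part of GC content in these shares was not tested. Among all genes counted, ACGTG stood in 35.4% of the 164 windows of those that passed 1.5-fold towards HC, and in 31.1% of the 119 windows of those that passed it towards NC. The members were chosen as known genes of the HIF pathway, so these shares describe the list and test nothing.

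As a group, the HIF targets were higher in the HC library, while Hif1a and Arnt, which encode HIF itself, differed little. A gene was counted if it reached 5 CPM in HC or NC, which took in 27 of the 34 members. Of these, 13 passed 1.5-fold towards HC, meaning a level in HC at least that many times the level in NC, and 0 passed it towards NC, whereas 1.93% of all 8704 genes counted were that much higher in HC and 1.47% that much lower. On the log2 scale the ratio of HC over NC had a median of 0.40 over the 27 members and -0.03 over all genes counted. The 13 were Egln1, Egln3, P4ha1, Plod2, Ero1l, Galk1, Selenbp1, Hilpda, Higd1a, Fam162a, Ndrg1, Ankrd37 and Zfp395. Among them, Selenbp1 reached 5 CPM in HC but not in NC. Nothing lay close to the 1.5-fold line from below: the lowest of the 13 was Higd1a at 1.56-fold and the next member down was Kdm3a at 1.32-fold. Together the 34 members made up 1416 CPM in HC and 978 CPM in NC.

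**Figure D1:**
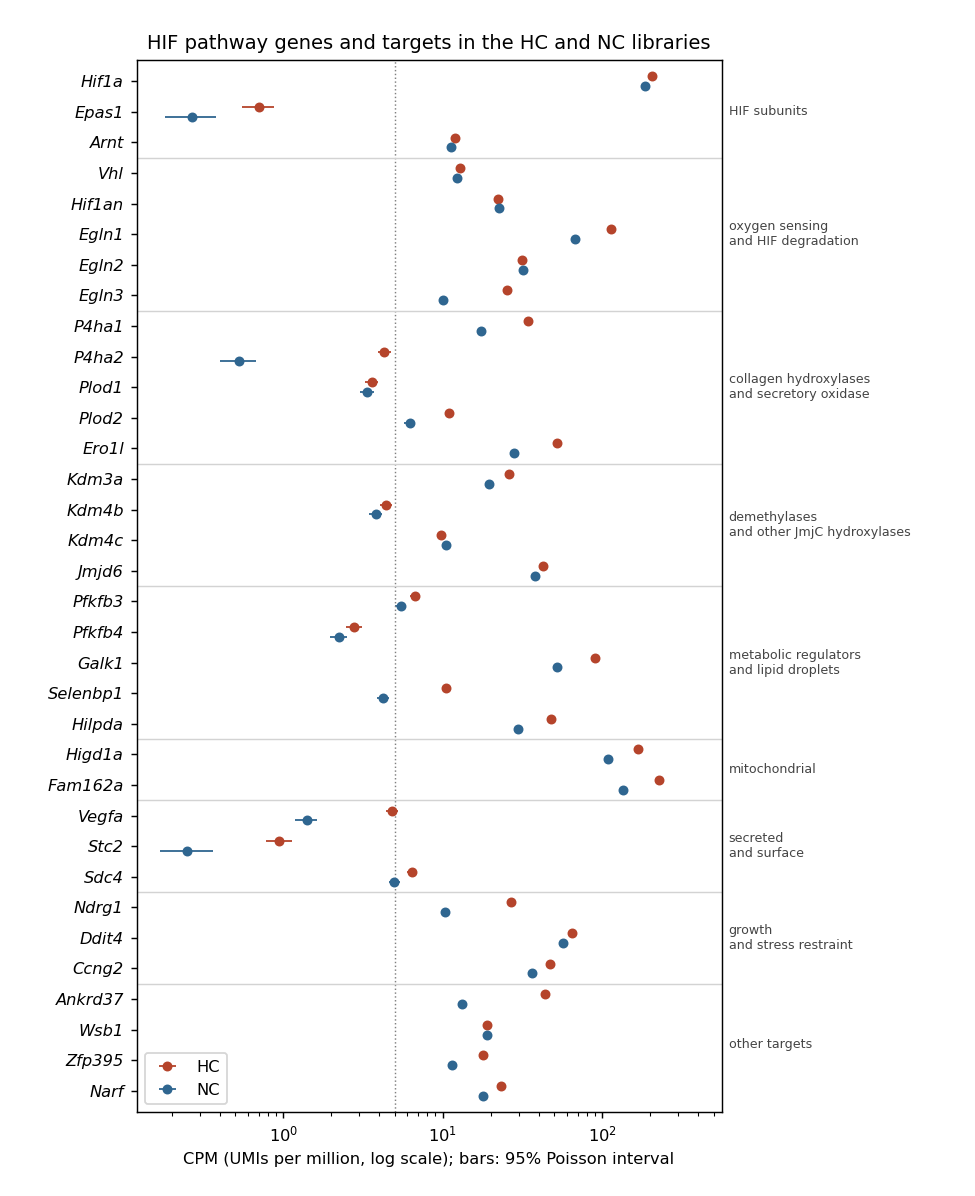
Summed level of each of the 34 members in the HC and NC libraries, in CPM on a log axis, grouped by role, with 95% Poisson intervals and a dotted line at 5 CPM. The oxygen-sensor Egln3, the hydroxylase P4ha1, Ndrg1 and Ankrd37 stand to the right in HC, while Hif1a, Arnt, Vhl, Hif1an and Egln2 nearly coincide.

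Of the subunits, Hif1a and Arnt were close in both libraries. Hif1a stood at 205 CPM in HC (202 to 207) and 186 CPM in NC (184 to 189), a log2 ratio of 0.14 (0.11 to 0.16). Arnt stood at 11.9 CPM in HC and 11.2 CPM in NC, with an interval of the log2 ratio that held 0 (-0.02 to 0.20). Epas1, which encodes the HIF-2 alpha subunit better known from endothelium, was near the limit of detection at 80 UMIs (0.699 CPM) in HC and 31 UMIs (0.268 CPM) in NC, 2.61-fold higher in HC (1.71 to 4.09).

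The machinery that destroys or restrains HIF split between its members. Egln3, a prolyl hydroxylase and itself a known HIF target, stood at 25.5 CPM in HC (24.5 to 26.4) and 10.0 CPM in NC (9.44 to 10.6), 2.54-fold higher in HC (2.38 to 2.73). Egln1, the main oxygen sensor and also a target, stood at 113 CPM in HC (111 to 115) and 67.8 CPM in NC (66.3 to 69.4), 1.66-fold higher in HC. The third paralogue, Egln2, was level at 31.5 CPM in HC and 31.8 CPM in NC, with a log2 ratio of -0.01 (-0.08 to 0.05). Vhl, at 12.8 CPM in HC and 12.2 CPM in NC, and Hif1an, at 22.2 CPM in HC and 22.5 CPM in NC, had intervals that held 0 as well. The intervals of Egln2, Vhl and Hif1an reached no further from 0 than -0.10 and 0.18.

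Enzymes that hydroxylate collagen in the endoplasmic reticulum, grouped here with an oxidase of that compartment, held the widest ratio. P4ha2, a catalytic subunit of collagen prolyl 4-hydroxylase, had 493 UMIs (4.31 CPM) in HC and 61 UMIs (0.527 CPM) in NC, 8.18-fold higher in HC (6.26 to 10.9). It stayed under 5 CPM in both libraries and so is not among the 13, and its log2 ratio of 3.03 was 2.08 after each cell was thinned to 2000 UMIs. Its paralogue P4ha1 stood at 34.03 CPM in HC and 17.4 CPM in NC, 1.96-fold higher in HC (1.86 to 2.07). Plod2, a lysyl hydroxylase, stood at 10.9 CPM in HC and 6.19 CPM in NC, 1.76-fold higher in HC (1.61 to 1.93), while the related Plod1 stood at 3.58 CPM in HC and 3.37 CPM in NC, with a log2 ratio of 0.09 (-0.11 to 0.29). Ero1l, the oxidase that drives disulphide bond formation there, stood at 51.8 CPM in HC and 28.0 CPM in NC, 1.85-fold higher in HC (1.77 to 1.93).

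Related genes thus fell on both sides of the 1.5-fold line, with Egln1, Egln3, P4ha1, P4ha2 and Plod2 above it and Egln2 and Plod1 below it. The demethylases, which need oxygen as the EGLN enzymes do, lay under 1.5-fold throughout. Kdm3a, a histone H3 lysine demethylase and HIF target, stood at 25.8 CPM in HC and 19.6 CPM in NC, a log2 ratio of 0.40 (0.32 to 0.48). Kdm4c was at 9.70 CPM in HC and 10.5 CPM in NC (log2 ratio -0.11), and Kdm4b at 4.40 CPM in HC and 3.79 CPM in NC, below the 5 CPM limit. Jmjd6, a lysyl hydroxylase, stood at 42.5 CPM in HC and 38.0 CPM in NC, a log2 ratio of 0.16. Exons of Jmjd6 overlap those of Mettl23 on the other strand, which stood at 129 CPM in HC and 144 CPM in NC, and whether counting used strand was not stated, so their reads may not be told apart.

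Most genes of metabolism and both of mitochondria were among the 13. Hilpda, which blocks breakdown of lipid droplets, stood at 48.0 CPM in HC and 29.8 CPM in NC, 1.61-fold higher in HC (1.54 to 1.68). Thinned to 2000 UMIs per cell, its log2 ratio was 0.51, under the 1.5-fold line, and 12 of 27 members passed (2.8% of all genes). Galk1, which phosphorylates galactose, stood at 89.8 CPM in HC and 52.2 CPM in NC, 1.72-fold higher in HC (1.67 to 1.78). Selenbp1, a methanethiol oxidase, was 2.47-fold higher in HC (2.22 to 2.75) at 10.4 CPM in HC and 4.21 CPM in NC, but its close copy Selenbp2 makes the assignment of its reads uncertain. Higd1a, whose mitochondrial protein stabilises respiratory complexes, stood at 169 CPM in HC and 108 CPM in NC, 1.56-fold higher in HC (1.52 to 1.59). Fam162a, which encodes a mitochondrial membrane protein, stood at 226 CPM in HC and 134 CPM in NC, 1.68-fold higher in HC (1.65 to 1.72). Pfkfb3 and Pfkfb4 set the level of a sugar phosphate that activates glycolysis. Pfkfb3 lay at 6.65 CPM in HC and 5.44 CPM in NC, a log2 ratio of 0.29 (0.14 to 0.44), and Pfkfb4 at 2.78 CPM in HC and 2.22 CPM in NC, a log2 ratio of 0.32 (0.08 to 0.57).

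Secreted and growth-restraining targets were split. Vegfa, the angiogenic growth factor, had 550 UMIs (4.81 CPM) in HC and 162 UMIs (1.40 CPM) in NC, 3.44-fold higher in HC (2.88 to 4.12). Stc2, a secreted glycoprotein, had 108 UMIs in HC and 29 UMIs in NC, 3.77-fold higher in HC (2.48 to 5.89). Both lay under 5 CPM, as did Epas1 and P4ha2, and these 4 were the members under that limit that were at least 1.5-fold higher in HC. Sdc4, a surface proteoglycan, had a log2 ratio of 0.36 at 6.40 CPM in HC and 4.97 CPM in NC. Ndrg1, a stress-responsive gene that restrains growth, stood at 26.9 CPM in HC (25.9 to 27.8) and 10.4 CPM in NC (9.79 to 11.0), 2.59-fold higher in HC. Ddit4, which restrains the growth kinase mTORC1, was nearly level at 64.8 CPM in HC and 57.1 CPM in NC (log2 ratio 0.18), and Ccng2, a cyclin of arrested cells, stood at 46.8 CPM in HC and 36.2 CPM in NC (log2 ratio 0.37).

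Ankrd37, an ankyrin-repeat gene known as a direct HIF target, had the highest ratio of the counted members. It stood at 43.7 CPM in HC (42.5 to 44.9) and 13.2 CPM in NC (12.6 to 13.9), 3.31-fold higher in HC (3.12 to 3.51). Its exons share up to 57 bases with those of Ufsp2 on the other strand, which stood at 22.0 CPM in HC and 19.3 CPM in NC, and up to 101 with Lrp2bp, under 0.2 CPM in both. Exons of Hif1a, Egln2, Higd1a, Fam162a and Ndrg1 also overlap genes on the other strand, each under 5 CPM in both libraries. Zfp395, a zinc finger protein, stood at 17.9 CPM in HC and 11.3 CPM in NC, 1.58-fold higher in HC (1.47 to 1.70). Narf, which binds prelamin A, had 2648 UMIs in HC and 2084 UMIs in NC (log2 ratio 0.36), and Wsb1, part of a ubiquitin ligase, stood at 18.9 CPM in HC and 19.1 CPM in NC (log2 ratio -0.01). Over all 34 members, 27 had an interval wholly above 0, 7 an interval that held 0 and 0 an interval wholly below 0. No such count was made over all genes, and at this depth the intervals leave out 0 at small ratios, as for Hif1a.

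Other genes of the pathway were read from lists of regulators and of further targets. Of 16 further HIF regulators that were counted, among them coactivators, chaperones and subunits of the VHL and SIAH ligases, 0 were at least 1.5-fold higher or lower in HC, with a median log2 ratio of -0.04. The widest were Epop, which binds the elongin pair of the VHL ligase, at -0.52, the ligases Siah2 at -0.30 and Siah1a at -0.29, and the chaperone Hsp90ab1 at 0.19. Of 21 further hypoxia targets outside glycolysis counted, 6 passed 1.5-fold towards HC and 0 towards NC, with a median of 0.25. They were led by Mgarp, a mitochondrial transport protein, at 14.9 CPM in HC and 0.475 CPM in NC, and Bnip3, which marks mitochondria for removal, at 43.3 CPM in HC and 9.11 CPM in NC, and also held Pdk1, which keeps pyruvate out of mitochondria, at 1.05 and the chemokine receptor Cxcr4 at 0.79. Of 17 glycolytic HIF targets counted, 14 passed it towards HC and 0 towards NC, with a median of 0.79, led by the aldolase Aldoc at 40.3 CPM in HC and 8.78 CPM in NC, the lactate exporter Slc16a3 at 57.7 CPM in HC and 15.0 CPM in NC, Tpi1 and Aldoa.

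Mitochondrial share and depth differed between the libraries, and the members were followed across both. The median mitochondrial share was 4.36% in HC cells and 3.93% in NC cells, and barcodes over 10% made up 11.5% of the HC library and 7.41% of the NC library. Among cells with at most 5%, 14 of the 28 members counted passed 1.5-fold towards HC (2.15% of all genes), with a median log2 ratio of 0.56. Among cells between 5 and 10%, 7 of 27 did (1.78% of all genes), with a median of 0.38. In the left-out barcodes over 10%, 12 of 32 did and 2 passed it towards NC (9.92% of all genes higher and 9.47% lower, at a median of only 839 UMIs in HC and 958 UMIs in NC). Ankrd37 had log2 ratios of 1.81, 1.47 and 2.20 in these classes. Egln3 stood at 27.5 CPM in HC and 10.1 CPM in NC in the first class, at 19.5 CPM in HC and 9.77 CPM in NC in the second, and at 17.9 CPM in HC and 5.71 CPM in NC in the third. The third class held few UMIs, 70 in HC and 10 in NC for Ankrd37, and 43 in HC and 9 in NC for Egln3. Intervals of the log2 ratio there were 1.24 to 3.32 for Ankrd37 and 0.59 to 2.87 for Egln3. Over 3 bins of UMIs per cell, of near equal size over both libraries, the counts were 8 of 28 in the shallowest (2.25% of all genes), 12 of 27 in the middle (6.69%) and 16 of 29 in the deepest (2.15%), with medians of 0.38, 0.49 and 0.69. In the middle bin, cells with a UMI of the proliferation marker Mki67 made up 72.1% of HC and 42.0% of NC cells, against 37.7% of HC and 35.4% of NC cells in the shallowest and 94.4% of HC and 84.0% of NC cells in the deepest. The part of these differences in the members' ratios was not tested across the bins. Without cells holding a UMI of a B cell or myeloid marker, 13 of 27 members were at least 1.5-fold higher in HC (2% of all genes).

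Over all cells, too, those with Mki67 were more frequent in HC, and the contrast was repeated within cells with and without it. At least 1 Mki67 UMI was found in 9425 HC cells (69.2%) and 7285 NC cells (53.4%). Cells with Mki67 were deeper, at medians of 8774 UMIs in HC and 9367 UMIs in NC, than cells without, at 5172.5 UMIs in HC and 5703 UMIs in NC. Among cells with Mki67, 13 of 26 members counted passed 1.5-fold towards HC and 0 towards NC, against 1.78% and 1.54% of all genes. The median log2 ratio was 0.51 over the members and -0.02 over all genes. Among cells without it, 12 of 28 members did, Sdc4 among them, and 0 were lower, against 1.94% and 1.92% of all genes, with medians of 0.45 and -0.06. Of the 13 members called over all cells, 11 passed 1.5-fold in both classes, the exceptions being Galk1 and Zfp395 at 1.49-fold and 1.36-fold in cells without Mki67.

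**Figure D2:**
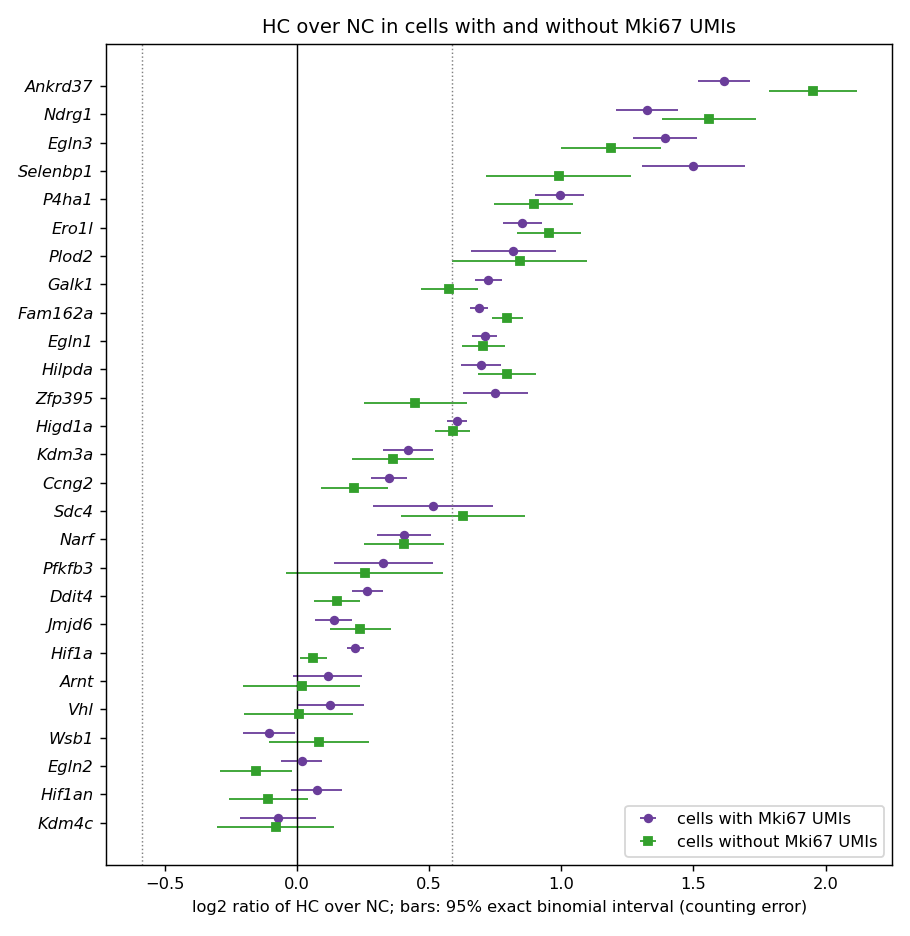
Log2 ratio of HC over NC for the 27 counted members, in cells with Mki67 UMIs (circles) and without (squares), with 95% exact binomial intervals and dotted lines at 1.5-fold. Ankrd37 has the highest ratio in both classes, at 1.61 in cells with Mki67 and 1.95 in cells without.

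The ratio of HC over NC was then compared between cells with and without Mki67 for each member. The log2 ratio in cells with Mki67 minus that in cells without had an interval that held 0 for 23 of 34 members, lay above 0 for 8 and below 0 for 3. An interval that holds 0 does not show equal ratios, and for members with few UMIs it was wide, as for Epas1 (-1.34 to 1.51). No such count was made over all genes. Egln1 was 1.64-fold higher in HC in cells with Mki67 and 1.63-fold in cells without, a log2 difference of 0.01 (-0.09 to 0.10). Ankrd37 stood at 44.1 CPM in HC and 14.4 CPM in NC in cells with Mki67, and at 42.3 CPM in HC and 10.9 CPM in NC in cells without, a difference of -0.34 (-0.53 to -0.14). Ndrg1 stood at 25.9 CPM in HC and 10.3 CPM in NC in cells with Mki67, and at 30.7 CPM in HC and 10.4 CPM in NC in cells without, a difference of -0.23 (-0.45 to -0.02). Fam162a was the other member with a wider ratio in cells without Mki67, by -0.11 (-0.18 to -0.04). Selenbp1 went the other way, at 2.82-fold in cells with Mki67 and 1.99-fold in cells without (0.17 to 0.85 for the log2 difference), as did Zfp395 and Galk1. Hif1a had log2 ratios of 0.22 in cells with Mki67 and 0.06 in cells without. These intervals take no account of variation between cells or cultures, so the differences themselves were not tested.

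Within each library few members passed 1.5-fold between cells with and without Mki67. In HC, 1 of 28 members counted was at least 1.5-fold higher in cells with Mki67 and 2 were lower, against 11.7% and 3.89% of all genes. In NC, 1 of 27 was higher and 1 lower, against 10.5% and 4.33% of all genes. The member higher with Mki67 was Galk1 in both libraries, at 98.3 CPM in cells with Mki67 and 56.9 CPM in cells without in HC, and at 59.5 CPM and 38.2 CPM in NC. Sdc4 was lower with Mki67 in both, at 4.86 CPM in cells with and 12.4 CPM in cells without in HC, and at 3.40 CPM and 7.98 CPM in NC. Its ratio of HC over NC was thus wider within each of these classes than over all cells. The other member lower with Mki67 was Kdm4b in HC, at 3.87 CPM with Mki67 and 6.43 CPM without. In NC Kdm4b leaned the same way, at 3.31 CPM with Mki67 and 4.71 CPM without. Its log2 ratio there was -0.51 (-0.79 to -0.23), and it was under 5 CPM in both classes and so not counted. With Mki67 read from thinned counts, Galk1 was under 1.5-fold in both libraries and 0 members were higher (7.9% of all genes in HC and 7.79% in NC). The 13 members higher in HC did not share a direction between cells with and without Mki67. Beside Galk1, their log2 ratios of cells with over cells without ran from -0.34 for Hilpda to 0.27 for Higd1a within HC, and from -0.50 for Selenbp1 to 0.40 for Ankrd37 within NC. Ankrd37 was at 0.06 (-0.04 to 0.16) within HC and 0.40 (0.24 to 0.56) within NC, and Selenbp1 at 0.01 (-0.19 to 0.22) within HC and -0.50 (-0.76 to -0.23) within NC. Hif1a was slightly lower in cells with Mki67, by log2 ratios of -0.17 in HC and -0.33 in NC, and so was Ddit4, by -0.26 in HC and -0.37 in NC. These ratios are from unthinned counts. In thinned cells, with Mki67 read from thinned counts, Hif1a was found in 33.6% of HC cells with Mki67 (32.4 to 34.8). Its share was 34.3% in HC cells without (33.2 to 35.4), and 28.4% and 31.6% in NC cells. Ddit4 was found in 11.5% of HC cells with Mki67 and 12.1% of those without, and in 11.0% and 11.7% of NC cells. Ccng2 went the other way on this thinned measure. It was found in 10.3% of HC cells with Mki67 and 7.10% of those without, and in 8.11% and 6.59% of NC cells.

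**Figure D3:**
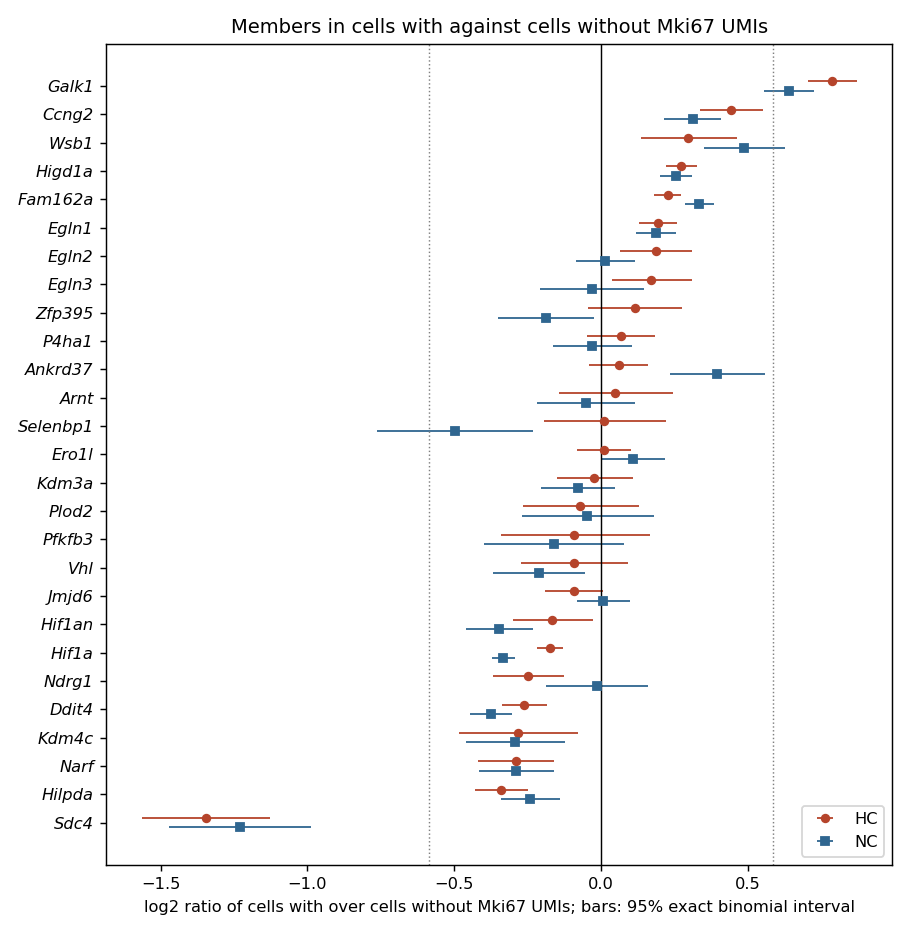
Log2 ratio of cells with over cells without Mki67 UMIs for the 27 members counted in the comparison of the libraries, within HC (circles) and within NC (squares), with 95% exact binomial intervals and dotted lines at 1.5-fold. Galk1 lies beyond the upper line and Sdc4 beyond the lower line in both libraries, and the rest lie between the lines.

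Shares of cells with a UMI were taken after thinning each cell to 2000 UMIs, which left 13523 HC and 13508 NC cells and left out 94 HC and 133 NC cells. No class of cells that should lack these genes was at hand, so a share is of cells with a UMI and not of cells that express the gene. Ankrd37 was found in 7.45% of HC cells (7.02 to 7.91) and 2.23% of NC cells (1.99 to 2.49), and unthinned in 23.9% of HC and 9.77% of NC cells. Cells with 2 or more Ankrd37 UMIs, unthinned, made up 7.64% of HC cells and 1.19% of NC cells, and the most in 1 cell was 11 in HC and 6 in NC. Egln3 was found in 4.23% of HC cells (3.90 to 4.58) and 1.91% of NC cells (1.69 to 2.16), and Hif1a in 33.96% of HC cells (33.2 to 34.8) and 30.6% of NC cells (29.8 to 31.4). Unthinned, Egln3 was found in 16.6% of HC and 7.79% of NC cells and Hif1a in 74.2% of HC and 70.0% of NC cells.

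The number of members found per cell sums these shares cell by cell and is no separate result, since no number expected from the single shares was computed. After thinning, an HC cell held UMIs of 2.32 of the 34 members on average and an NC cell of 1.73. At least 5 members were found in 10.1% of HC cells and 2.47% of NC cells, and at least 8 in 0.961% of HC cells and 0.0148% of NC cells. None was found in 10.8% of HC cells and 15.2% of NC cells. The figures were close by Mki67 status, since cells with at least 5 members made up 10.4% of HC cells with Mki67 after thinning and 9.86% of those without, and 2.40% of NC cells with Mki67 and 2.50% of those without.

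**Figure D4:**
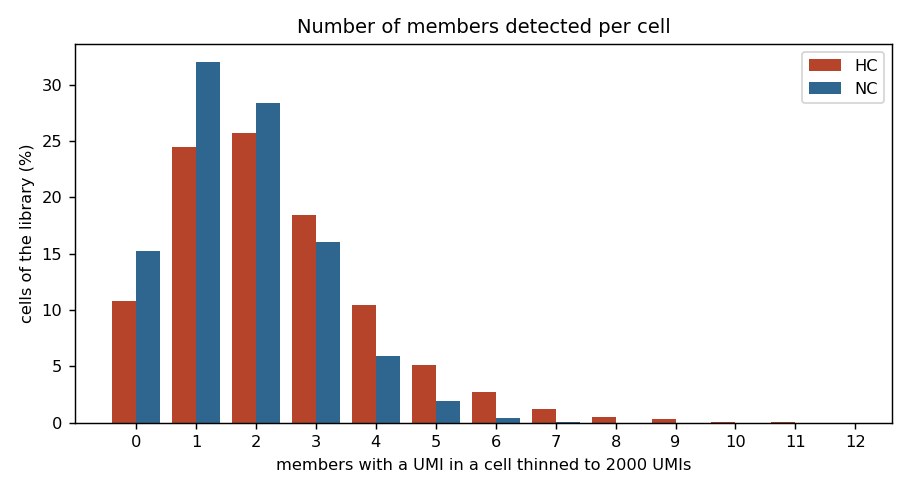
Share of cells of each library, in %, by the number of the 34 members with a UMI after thinning to 2000 UMIs. HC cells outnumber NC cells from 3 members upward, with 39.0% of HC cells and 24.4% of NC cells at 3 or more.

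To see whether the members shared cells with a hypoxia gene outside the list, thinned cells with and without a Bnip3 UMI were compared within each library. In HC, 920 cells (6.80%) had one, and 19 of 30 members counted were at least 1.5-fold higher in them and 0 lower, against 4.35% and 4.04% of all genes. The median log2 ratio was 1.01 over the members and -0.003 over all genes. Ankrd37 stood at 110.3 CPM in HC cells with Bnip3 and 36.7 CPM in those without, Ndrg1 at 60.9 and 22.5 CPM, Egln3 at 45.7 and 20.7 CPM, and Fam162a at 389 and 184 CPM. Jmjd6, at a log2 ratio of only 0.16 between the libraries, was also higher in HC cells with Bnip3, at 79.9 CPM with Bnip3 and 38.6 CPM without, whereas Hif1a stood at 196 and 219 CPM and Egln2 at 29.9 and 30.7 CPM.

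In NC only 236 cells (1.75%) had a Bnip3 UMI, and 8 of 28 members counted were at least 1.5-fold higher in them and 3 lower, against 11.3% and 12.8% of all genes. The count of higher members was 3 of 26 in another thinning draw (10.6% of all genes) and 1 of 26 with all UMIs used (0.473%). Ankrd37 had 2 UMIs and Egln3 1 UMI in those NC cells. Of the 8 higher members, Plod1, Selenbp1 and Sdc4 had 4 UMIs each there and Pfkfb3 had 5. Plod1 and Selenbp1 reached 5 CPM only in those cells, at 8.47 CPM each, against 3.65 and 4.33 CPM in NC cells without Bnip3. Among the 18 members with at least 20 CPM in either library, the interval of the ratio lay above 0 for 14 in HC and 1 in NC, Hilpda, and held 0 for 3 in HC and 16 in NC. It lay below 0 for Hif1a in both libraries. Whether the libraries differ in this respect was not tested, the NC intervals were wide, and no such count was made over all genes. Split by Ankrd37 itself, 16 of 28 other members counted were at least 1.5-fold higher in the 1008 HC cells with a UMI (3.21% of all genes) and 1 lower (3.61%). In the 301 NC cells with one, 1 of 25 was higher (8.73% of all genes) and 4 lower (11.3%).

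**Figure D5:**
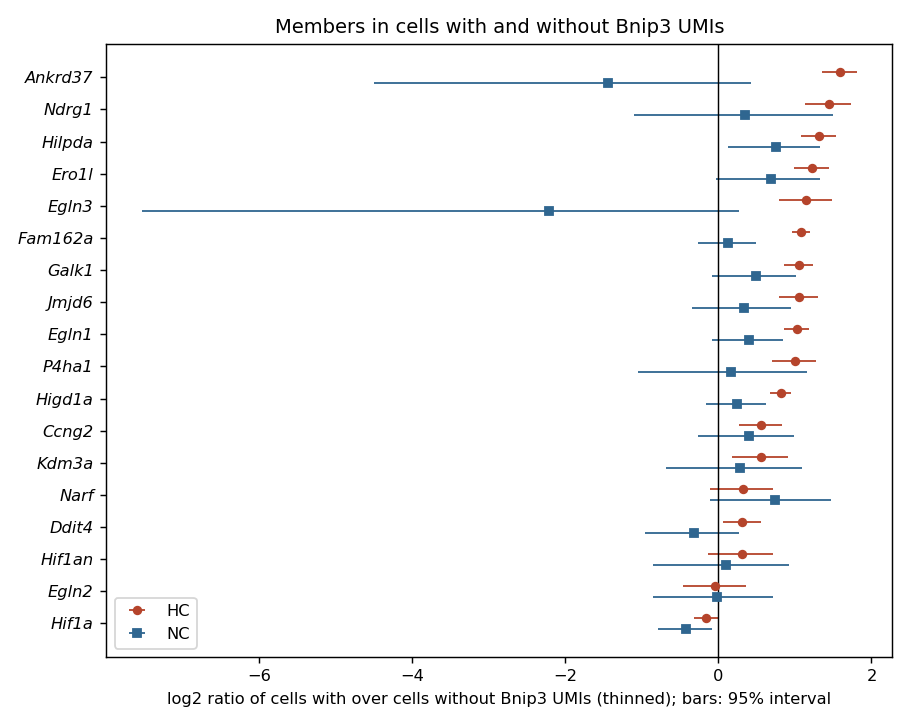
Log2 ratio of thinned cells with over cells without a Bnip3 UMI, within HC (circles) and within NC (squares), for the 18 members with at least 20 CPM in either library, with 95% exact binomial intervals. HC points from Kdm3a upward lie above 0 with narrow intervals, while NC intervals are wide and mostly cross 0.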

How the data were processed

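Single-cell 3' libraries (10x Genomics v3.1 kit, per the labels' protocols) of mouse CD8+ T cells were deposited as raw UMI counts, whole numbers for each gene in each barcode. Per the file headers, Cell Ranger 6.1.2 wrote the count matrices. Per the submitters' processing notes, the tools were Seurat 3.2.3 and Cell Ranger 5.0.0 and the build was mm10. Annotation release, strand setting and barcode calling are not given in these sources.

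From the deposited counts, cells with at least 500 genes, 1000 UMIs and at most 10% mitochondrial UMIs were summed per library (114430972 HC and 115789139 NC UMIs, so that a count of 0 allows 0.0262 and 0.0259 CPM at 3 counts). CPM carry exact Poisson intervals, shares exact Clopper-Pearson intervals, ratios exact binomial intervals and differences of ratios conditional exact odds ratio intervals, all at 95%. No pseudocount was used. Cells are not replicates, so no test was run. A gene was counted at 5 CPM or more in either group compared and called at 1.5-fold.

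Members, lists, filters and thresholds were all chosen with earlier results of these data known. All 34 members are named, and of the other lists the 4 genes with the widest ratios. Gene overlaps came from GENCODE vM21 (GRCm38), promoters from RefSeq. The 1.5-fold call and the intervals of ratios and of their differences were tested on simulated Poisson counts, the error that these intervals assume. Filtering, summing and thinning of cells were not part of that simulation. Alternatives included size factors by median of ratios (DESeq2 1.42.0) and by TMM (edgeR 4.0.16), for scaling only. Work used Python 3.11.15, numpy 2.4.6, scipy 1.17.1, pandas 2.3.3, matplotlib 3.10.9 and R 4.3.3.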

Additional observations from a re-analysis of the deposited data

Results flagged for a closer look

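In 4 members the ratio of HC over NC had opposite signs in cells with and without Mki67 UMIs. The difference was not tested, and each is given as the log2 ratio in cells with Mki67 minus that in cells without, with its 95% interval for counting error. It was 0.18 for Hif1an (0.004 to 0.36), 0.17 for Egln2 (0.01 to 0.33), 0.65 for Plod1 (0.17 to 1.14) and -0.19 for Wsb1 (-0.40 to 0.02). In all 4 the ratio was under 1.5-fold in both classes, with Plod1 the widest at log2 ratios of 0.29 and -0.36 and under 5 CPM.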

How the results depend on the processing

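No paired analysis was possible because each group has 1 library, which also leaves no replicate to omit. Of 98 recomputed counts and medians, 84 stayed within 1.5 times the reported count or inside the median of the members' intervals. Over 16 alternatives, the count of members lower in HC was 0 and that of members higher 10 to 17, except at 2-fold. This range pools unlike floors and thresholds. The 10 came at a floor of 20 CPM (1.36% of all genes higher in HC), and the 17 at a lower threshold than 1.5-fold (7.61%). At a 2-fold threshold, 4 members were higher in HC over all cells (0.437% of all genes), 4 in cells with Mki67 (0.439%) and 3 in cells without (0.488%). The median log2 ratio was 0.56 with a stricter cell filter (1000 genes, 2000 UMIs and 5% mitochondrial) and 0.66 at a floor of 20 CPM. Members higher in cells with Mki67 numbered 0 in HC and 0 in NC at 2-fold (5.97% of all genes in HC, 5.4% in NC) or with Mki67 called from thinned counts (7.9% in HC, 7.79% in NC), and 2 in HC (23.7%) and 4 in NC (21.3%) at a lower threshold than 1.5-fold. For cells with Bnip3 in NC, alternatives chosen after seeing the data gave 3 in another thinning draw, 3 of 14 at a floor of 20 CPM (6.03% of all genes) and 1 with all UMIs. Of 374 recomputed member ratios, 343 stayed within their counting interval, 31 left it and 0 of those called changed direction. Thinned, P4ha2 had a log2 ratio of 2.08, against 3.03. Depth limits Epas1, Stc2, P4ha2 and Vegfa most, and with 1 library per group none of the intervals covers variation between animals or cultures.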
